A study of Mus musculus and Acomys cahirinus with 25 samples.

Results

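The collagen genes were described as 1 superfamily in all 25 libraries of the series. Its members were chosen by symbol, as every symbol of the count files made of Col, a number, the letter a and a number and nothing more. This gave 44 of the 24500 symbols, from Col1a1 to Col28a1, and no measured value entered the choice. By the structure of their proteins the members fell into 11 fibrillar genes, 6 basement membrane genes, 9 FACIT genes (fibril-associated collagens with interrupted triple helices), 6 beaded filament genes, 4 transmembrane genes, 3 short chain genes, 2 multiplexin genes, the anchoring fibril gene Col7a1 and 2 others (Col26a1 and Col28a1).

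Collagens are secreted or membrane-bound proteins whose chains wind around each other into stiff helices. In skin, fibroblasts of the dermis make the fibrillar types I, III and V, which form the tensile fibers, and FACIT collagens sit on the surface of those fibers. The epidermis rests on a basement membrane of type IV networks, is held to the dermis by type VII anchoring fibrils, and anchors its basal keratinocytes through the transmembrane type XVII of the hemidesmosome.

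The libraries were polyA RNA-seq of separated epidermis and dermis from dorsal skin. Laboratory mice (C57BL/6J or, for the genotype comparison, the Twist1 line with its wild-type Twist1+/+ controls, 4-week-old, both sexes) received a full-thickness wound and were taken at post-wound day (PWD) 14, when the center of the wound bed was biopsied and the rest was the margin. The wild-type (WT) groups were epidermis center, epidermis margin and dermis margin with 2 libraries each, and dermis center with 5 libraries, of which the study used 2 against the margin (replicates 1 and 2) and 3 against the mutant (replicates 3, 4 and 5). The mutant group, K14-Cre-Twist1 (KO), held 2 dermis center libraries. Its Cre recombinase is driven by the keratin 14 promoter of basal keratinocytes, so the Twist1 deletion was epidermal. Twist1 stood at 51.6, 32.3 and 94.5 CPM (counts per 1000000 reads on genes) in the 3 WT libraries of that comparison and at 66.8 and 38.0 CPM in KO, but dermal RNA does not check an epidermal deletion. African spiny mice (Acomys cahirinus, 2-month-old, wild type, both sexes) gave epidermis at PWD0 (1 library of shaved unwounded skin), PWD14 (2), PWD21 (2) and PWD28 (1), and dermis at PWD0 and PWD21 (2 libraries each, PWD0 again unwounded) and PWD14 and PWD28 (1 each), with whole wounds taken at the later days. The study's own sample list names somewhat different days for the wounded spiny mouse libraries, and the days of the deposited labels are used throughout.

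Reads on genes numbered 19413261 to 86532134 per laboratory mouse library and 5669760 to 34751956 per spiny mouse library, so that the smallest amount taken as detectable, 3 reads, lay between 0.0470 and 0.526 CPM. Spiny mouse reads were aligned to the laboratory mouse genome, so levels are not compared between the species. Laboratory mouse epidermis was sequenced paired-end and its dermis single-end, and in comparisons of those layers the layer and the read type cannot be told apart. Of the dermis libraries, KO replicate 2 stood apart, with 30036 CPM summed over 10 keratinocyte markers against 900 CPM in KO replicate 1 and 11.05 to 50.5 CPM in the WT libraries beside it. The labels do not say that libraries came from separate animals, so p-values measure the spread between these libraries.

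The collagen genes took a large share of dermal RNA and a small one of epidermal RNA. In laboratory mouse dermis they held between 9.05% (KO replicate 2) and 17.0% (center replicate 1) of reads on genes, and Col3a1, the fibrillar type III chain of extensible tissue, had more reads than any other gene in all 15 dermis libraries of both species. In laboratory mouse epidermis the share was 0.899% and 0.753% at the center and 0.326% and 0.216% at the margin. In spiny mouse epidermis it ran from 0.0807% to 0.259%, and in spiny mouse dermis it was 9.86% and 6.77% at PWD0, 15.2% at PWD14, then 12.6% and 17.1% in the PWD21 libraries and 10.4% at PWD28. Of the 44 genes, 29 were above 3 reads in every laboratory mouse dermis library and 26 in every epidermis library, and 36 and 24 were in the spiny mouse layers.

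**Figure D1:**
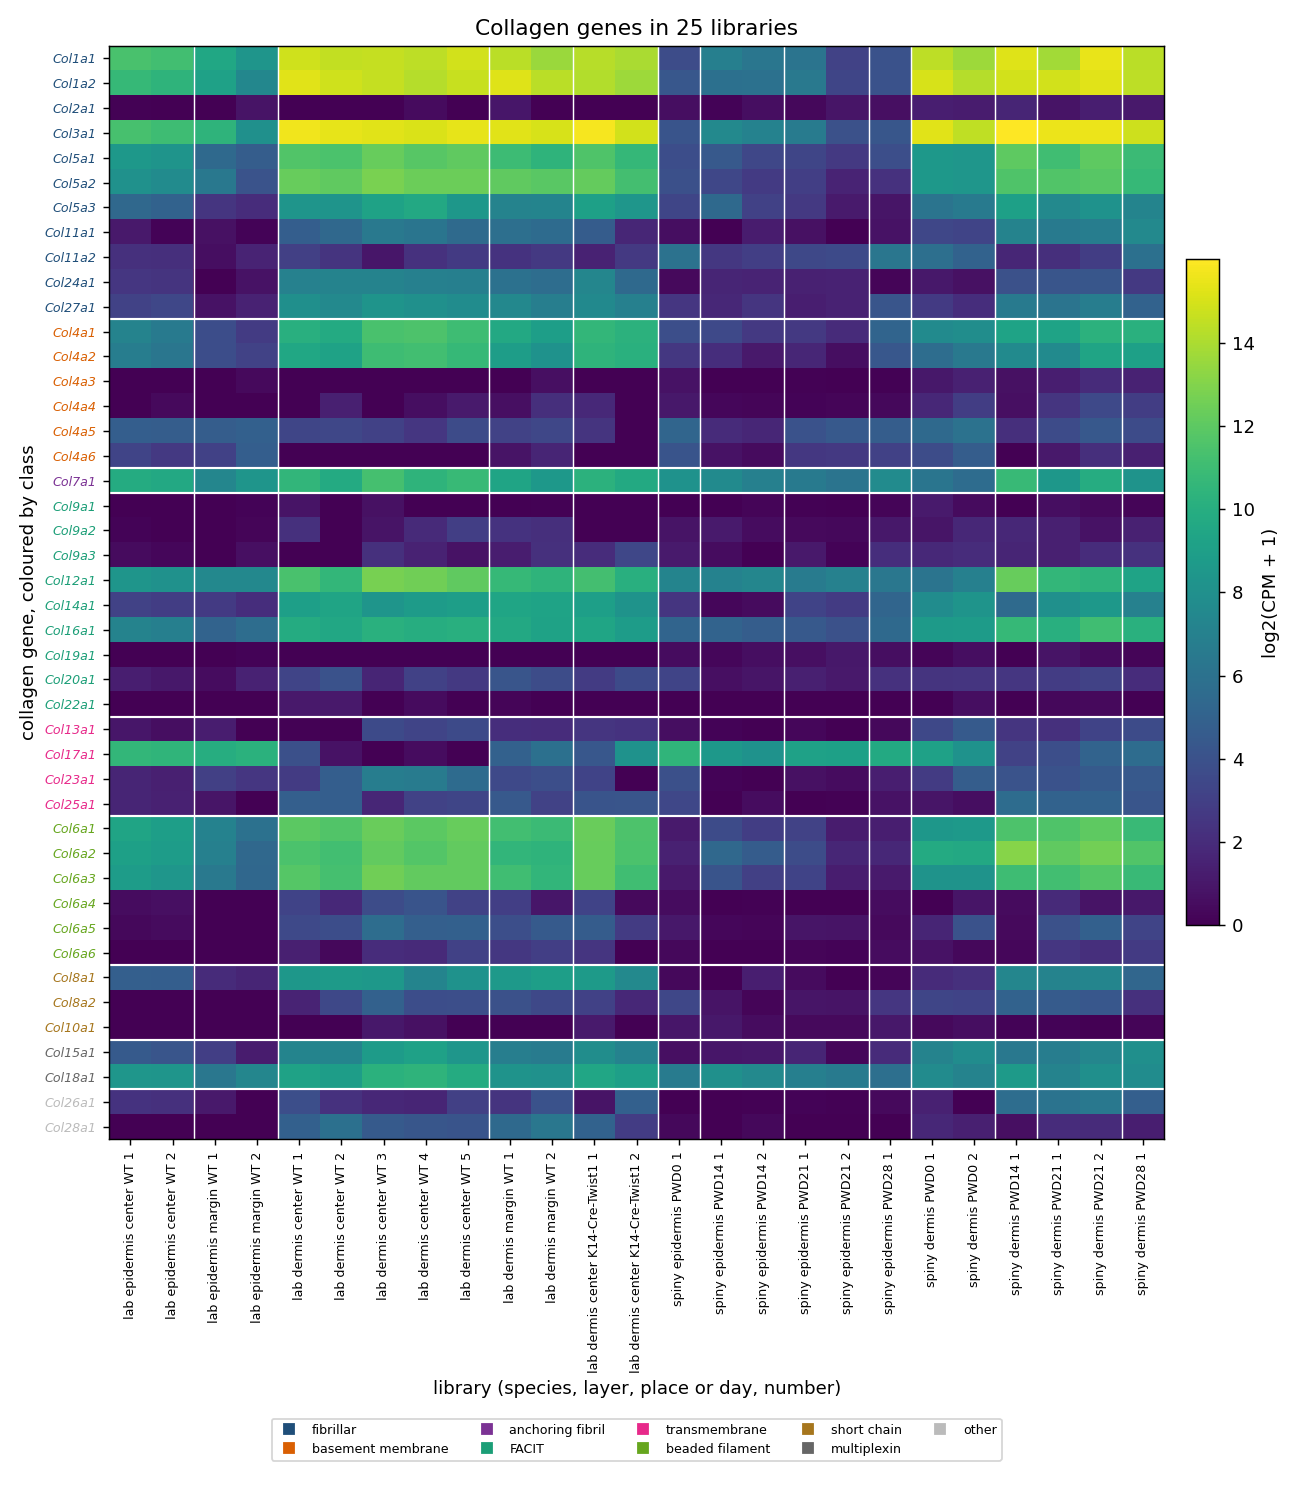
Heat map of the 44 collagen genes (rows, by class) in the 25 libraries (columns, by group), colored by log2(CPM + 1). Brighter cells are higher levels. Col1a1, Col1a2 and Col3a1 are brightest in the 15 dermis libraries, and Col17a1 is brighter in the 10 epidermis libraries, in KO replicate 2 and in spiny mouse dermis at PWD0 than in the other dermis libraries.

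Per kilobase of exon, which allows genes to be ranked, Col3a1 came first in every dermis group. In laboratory mouse dermis center its level was 7635 ± 1033 CPM per kb (SD, n = 5), followed by Col1a2 at 5123 ± 1403 and Col1a1 at 4400 ± 663, the chains of type I collagen, and by Col6a1, a microfibril chain, at 1042 ± 193. The ranges of Col3a1 and Col1a2 overlapped, as did those of Col1a2 and Col1a1. In laboratory mouse epidermis center Col1a1 (420 ± 47.9 CPM per kb, n = 2) and Col3a1 (419 ± 62.2) overlapped at the top, whereas at the margin Col17a1 led with 194 ± 24.1, within the range of Col3a1 at 143 ± 136. In spiny mouse epidermis Col17a1 led at each day, with 256 CPM per kb at PWD0, 58.2 ± 11.4 at PWD14 (n = 2), 98.9 ± 2.48 at PWD21 (n = 2) and 148 at PWD28.

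Partner chains were read in unequal and variable amounts. The ratio of Col1a1 to Col1a2 per kb of exon, the chains that join into type I collagen, ran from 0.507 to 1.11 over the 9 laboratory mouse dermis libraries and from 1.14 to 1.73 over the 4 epidermis libraries. That of Col4a1 to Col4a2, the main basement membrane pair, ran from 1.05 to 1.73 in laboratory mouse dermis. Col4a1 (chr8:11198423-11312889, minus strand, GRCm38) and Col4a2 (chr8:11312805-11449287, plus strand) lie head to head and their first bases overlap. Among the FACIT genes the balance of Col12a1, typical of tissue under tension, to Col14a1, its relative on mature fibrils, ran from 0.171 to 57.6 over the 6 spiny mouse dermis libraries.

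RefSeq promoter sequences (GRCm38.p6) matched 35 of the 44 members. The 250 bases before the start are shown for Col3a1, the gene with the most dermal reads, and for 3 genes on which the comparisons turned, namely Col24a1 (a minor fibrillar chain), Col7a1 and Col8a1 (a network-forming short chain). Capitals mark the letters TATAAA on the gene's strand, and CCAAT or GGGCGG on either strand.
Col3a1, chr1:45311288-45311537, plus strand: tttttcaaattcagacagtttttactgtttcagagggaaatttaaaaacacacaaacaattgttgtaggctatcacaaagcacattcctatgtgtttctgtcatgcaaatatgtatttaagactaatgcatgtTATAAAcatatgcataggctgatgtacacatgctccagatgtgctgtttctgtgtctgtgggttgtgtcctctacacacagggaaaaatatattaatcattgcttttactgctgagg
Col24a1, chr3:145292222-145292471, plus strand: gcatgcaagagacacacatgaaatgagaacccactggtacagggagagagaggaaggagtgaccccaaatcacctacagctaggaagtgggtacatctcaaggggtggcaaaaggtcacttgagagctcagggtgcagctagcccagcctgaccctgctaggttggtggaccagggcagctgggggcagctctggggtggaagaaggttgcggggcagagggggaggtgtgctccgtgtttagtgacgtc
Col7a1, chr9:108953336-108953585, plus strand: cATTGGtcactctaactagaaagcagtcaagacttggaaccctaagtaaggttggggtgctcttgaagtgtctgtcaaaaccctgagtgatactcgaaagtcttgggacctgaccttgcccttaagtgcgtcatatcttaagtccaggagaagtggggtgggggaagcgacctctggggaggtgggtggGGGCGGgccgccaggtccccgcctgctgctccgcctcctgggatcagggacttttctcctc
Col8a1, chr16:57754738-57754987, minus strand: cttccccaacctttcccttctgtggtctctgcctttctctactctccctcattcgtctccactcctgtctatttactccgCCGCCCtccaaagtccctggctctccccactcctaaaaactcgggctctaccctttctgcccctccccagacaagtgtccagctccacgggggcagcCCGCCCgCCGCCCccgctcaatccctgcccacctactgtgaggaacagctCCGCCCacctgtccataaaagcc
These windows differed in the letters searched, with TATAAA in that of Col3a1, 4 copies of the GGGCGG letters in that of Col8a1 and none of the 3 motifs in that of Col24a1. Over the 38 promoters of members, TATAAA stood in 13.2% against 7.59% of all 32851 promoters in the table, CCAAT in 34.2% against 33.8%, and GGGCGG in 57.9% against 32.7%. TGANTCA, the letters of an AP-1 site, stood in 2.63% against 6.75%, and the only member with them was Col6a1. These are letter matches and not tested sites.

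The makeup of the collagen reads differed by layer. Fibrillar genes held 75.3% to 89.7% of the collagen reads in WT laboratory mouse dermis and 58.2% to 59.1% in epidermis center, and at the epidermis margin they held 59.7% in replicate 1 and 27.6% in replicate 2. Transmembrane genes held 12.03% to 13.3% at the epidermis center and 21.6% to 40.5% at the margin, but 0.0324% to 0.103% in WT dermis and 0.384% in KO replicate 2. In spiny mouse epidermis transmembrane genes held 63.8% at PWD0, 24.1% to 24.6% at PWD14, 44.4% to 57.2% at PWD21 and 54.3% at PWD28. Spiny mouse dermis was fibrillar by 93.9% to 96.4% at PWD0 and by 85.5% to 87.1% later, while beaded filament genes held 1.56% to 2.61% at PWD0 and 8.03% to 8.74% later.

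**Figure D2:**
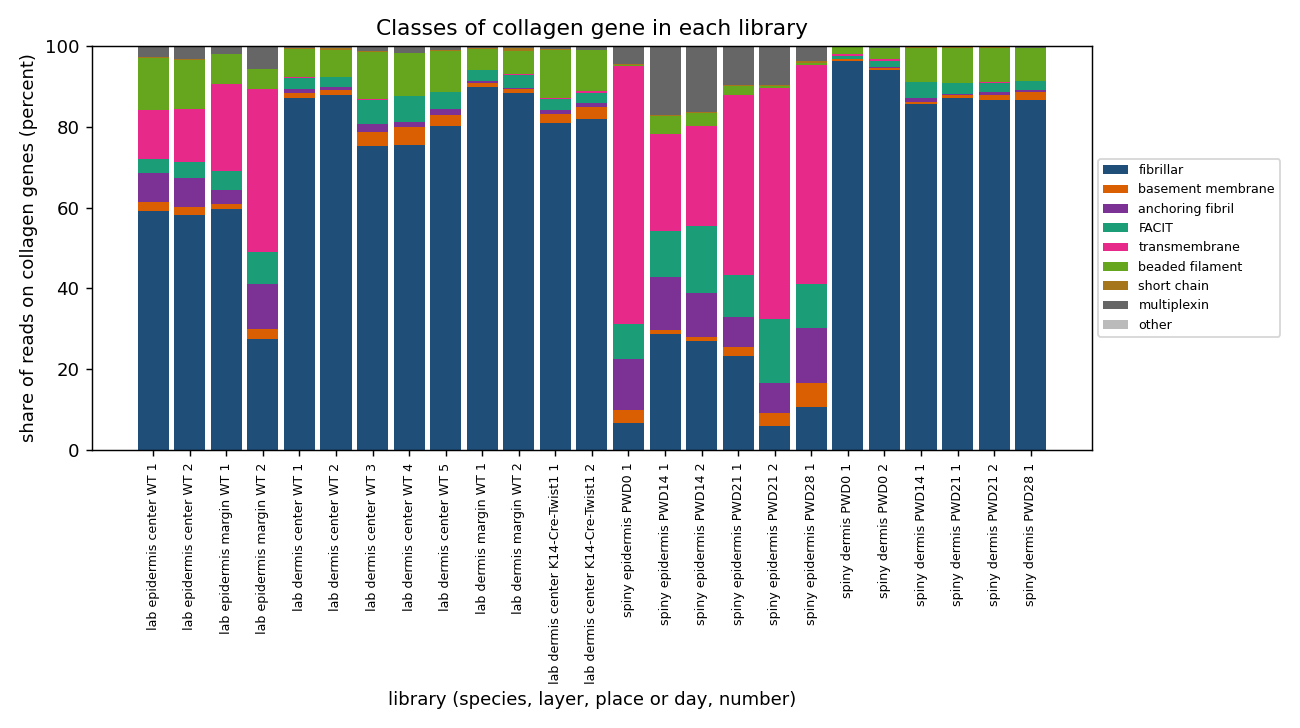
Stacked bars of the percent of each library's collagen reads held by each collagen class (vertical axis, 0 to 100%), 1 bar per library. Fibrillar genes fill most of each dermis bar, and transmembrane genes hold between 12.03% and 63.8% of the epidermis bars.

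Epidermis was compared with dermis in laboratory mouse center, laboratory mouse margin and spiny mouse PWD21. Most collagen genes were lower in epidermis in all 3 comparisons, and Col17a1 was higher. By the edgeR quasi-likelihood test, with p-values adjusted by Benjamini-Hochberg to an FDR and called under 0.05, 28 of the 36 collagen genes tested at the center were lower in epidermis, where 26.8% of all genes were, and 3 were higher, where 29.3% of all genes were. At the margin 30 of 39 were lower (26.8% of all genes) and 3 higher (20.9%). At spiny mouse PWD21, 34 of 41 were lower (33.5%) and 2 higher (29.4%). The median log2 difference of the members was -3.13, -4.96 and -5.73, against 0.05, -0.16 and -0.06 over all genes. Scaling by library size alone moved the median of all genes to -0.73 at the center and to -0.98 at the margin. The share of higher calls among all calls then fell from 4203 of 8038 to 2435 of 8595 at the center. At the margin it fell from 3126 of 7141 to 1599 of 7791.

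In the laboratory mouse the genes higher in epidermis were Col17a1, Col4a5 and Col4a6, all of the epithelial side of the junction. Col17a1 was at 1545 and 1429 CPM in epidermis center, 988 and 1178 CPM at the margin, and in dermis at 13.8 and 0.717 CPM at the center and 30.2 and 59.2 CPM at the margin. The layers did not overlap in either region, and the log2 difference was 4.63 ± 0.47 (SE) at the margin (24.8-fold, FDR = 3.26e-05). In spiny mouse PWD21 it was at 562 and 543 CPM in epidermis and 13.3 and 32.8 CPM in dermis, 23.5-fold higher in epidermis (FDR = 9.02e-05). Col4a5, a type IV chain of epithelial basement membranes like Col4a6, was at 27.0 and 25.02 CPM in epidermis center and 9.26 and 9.75 CPM in dermis center (2.78-fold, FDR = 0.00689), and 3.18-fold higher at the margin (FDR = 0.011). Its calls were lost when libraries were scaled by size alone (log2 difference 0.69, FDR = 0.0910, at the center and 0.84, FDR = 0.156, at the margin) and in 1 fit over all laboratory mouse libraries (FDR = 0.141 and 0.124). They were also lost without epidermis center replicate 1 or 2 (FDR = 0.108 and 0.0862) and without dermis margin replicate 1 or 2 (FDR = 0.123 and 0.0709). Col4a6 was at 8.53 and 5.35 CPM in epidermis center and at 0 reads in both dermis center libraries, and without epidermis center replicate 1 it did not pass (FDR = 0.0827). In spiny mouse PWD21 Col4a5 did not pass the test (log2 difference 0.14 ± 0.31, FDR = 0.708), and the other gene higher in epidermis was Col11a2, a fibrillar chain best known from cartilage, at 10.1 and 11.3 CPM against 3.43 and 6.42 CPM (FDR = 0.0282). Without epidermis replicate 2 or dermis replicate 1 of that day it did not pass (FDR = 0.0520 and 0.0633).

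Of the fibrillar genes, 9 of 10 tested were lower in epidermis at the center, 9 of 11 at the margin and 9 of 11 in spiny mouse PWD21. In laboratory mouse center their sum was 16.7-fold lower in epidermis, at the margin 49.7-fold and in spiny mouse PWD21 670-fold. Col1a1 was at 2690 and 2289 CPM in epidermis center against 29660 and 23790 CPM in dermis center (log2 difference -3.40 ± 0.48, FDR = 0.00325), and the spiny mouse difference was -9.53 ± 1.39 (FDR = 0.000757). Summed over 12 fibroblast markers, laboratory mouse epidermis held 1603 to 1848 CPM at the center and 626 to 896 CPM at the margin, against 29834 to 29875 CPM and 26894 to 27853 CPM in dermis. Over the members of each list the median epidermal level, as a percent of the dermal one, was 5.0% for fibrillar genes and 5.99% for fibroblast markers at the center, 1.64% and 1.61% at the margin, and 0.327% and 0.712% in spiny mouse PWD21. By these medians the markers moved with the fibrillar genes, but single markers did not all do so. The markers ran from 0.0935% to 126% at the center and from 0.186% to 58.0% at the margin, with Fbln1 highest in both. In spiny mouse PWD21 they ran from 0.0650% to 472%, with Thy1 highest. The part of the markers in the layer difference was not tested.

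The layers differed less in Col7a1 and Col18a1, genes of the junction zone, than in Col1a1 and Col3a1, by the values that follow. Col7a1, which both keratinocytes and fibroblasts make, was at 923 and 788 CPM in epidermis center and 1463 and 888 CPM in dermis center, so the layers overlapped (log2 difference -0.44 ± 0.28, FDR = 0.231). At the margin it was at 161 and 326 CPM against 638 and 365 CPM (FDR = 0.0686), and in spiny mouse PWD21 it was lower in epidermis, at 94.5 and 71.2 CPM against 360 and 936 CPM (log2 difference -2.99 ± 0.45, FDR = 0.000865). Col18a1, a multiplexin of basement membranes, was lower in epidermis in all 3 comparisons, with log2 differences of -0.68 ± 0.16 (FDR = 0.0170), -1.21 ± 0.36 (FDR = 0.0195) and -0.88 ± 0.30 (FDR = 0.0354). These Col18a1 calls did not hold in every alternative. The center call was lost without epidermis center replicate 1 or 2 (FDR = 0.0934 and 0.132) and in 1 fit over all laboratory mouse libraries (FDR = 0.117). The margin call was lost without dermis margin replicate 1 or 2 (FDR = 0.104 and 0.0629), in that 1 fit (FDR = 0.0567) and by the older edgeR procedure (FDR = 0.0515). The spiny mouse call was lost without epidermis replicate 2 (FDR = 0.143) or dermis replicate 2 (FDR = 0.130). Col12a1 in spiny mouse epidermis stood at 99.3 and 128 CPM against 1527 and 1294 CPM in dermis, a log2 difference of -3.68 ± 0.26 (FDR = 2.24e-05), beside -9.67 ± 1.22 for Col3a1 (FDR = 0.000358). Col14a1 was at the far end in the laboratory mouse, with -6.29 ± 0.23 at the center (FDR = 0.000165) and -7.20 ± 0.47 at the margin (FDR = 6.09e-06).

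**Figure D3:**
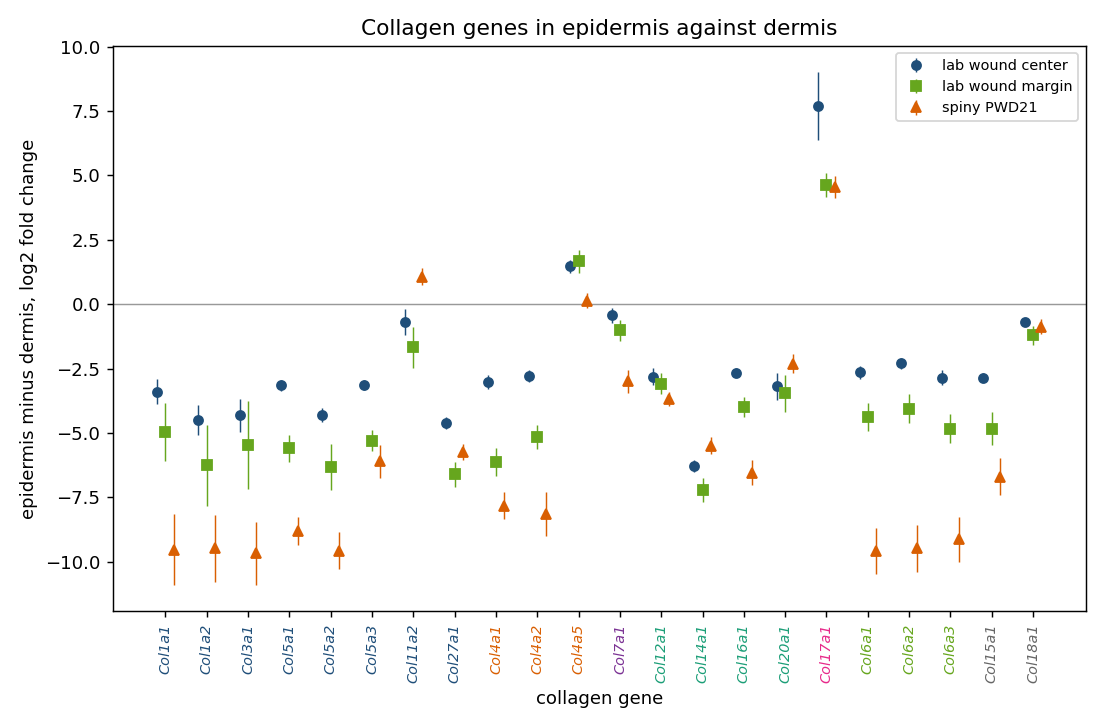
Log2 differences, epidermis minus dermis (vertical axis, bars are SE of the fit), of 22 collagen genes (horizontal axis, colored by class) in laboratory mouse center, laboratory mouse margin and spiny mouse PWD21. Col17a1 lies above 0 in each comparison, Col18a1 lies just under 0, and the fibrillar genes other than Col11a2 lie below 0.

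The region comparison asked how the wound center, where new follicles form in the laboratory mouse, differed from its margin. In epidermis 5 collagen genes were higher at the center and none was lower, namely Col4a1, Col4a2, Col5a1, Col5a3 and Col8a1. That is 5 of 33 tested, where 0.882% of all genes were called higher, and 23 of the 33 had an unadjusted p under 0.05. The 33 had a median log2 difference of 2.08 against -0.02 over all genes, and 28 were fitted above 0.

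Col4a1 and Col4a2, chains of the basement membranes of vessels and of the junction, were at 142 and 95.6 CPM and at 110.1 and 77.4 CPM in epidermis center. At the margin they were at 12.6 and 5.81 CPM and at 13.0 and 7.94 CPM. Every center library was above every margin library, and the log2 differences were 3.61 ± 0.45 for Col4a1 (12.3-fold, FDR = 0.0375) and 3.05 ± 0.36 for Col4a2 (8.30-fold, FDR = 0.0369). Col5a1, a chain that limits fibril diameter, was at 364 and 307 CPM against 43.2 and 24.9 CPM (8.93-fold, FDR = 0.0367). Col5a3, a minor type V chain, was at 40.8 and 31.0 CPM against 4.42 and 3.02 CPM (9.12-fold, FDR = 0.0369). Col8a1 was at 28.1 and 26.9 CPM against 2.97 and 2.13 CPM, a log2 difference of 3.35 ± 0.37 (10.2-fold, FDR = 0.0367), with the closest replicates of the 5.

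The major fibrillar and beaded filament genes did not pass the test in epidermis. Col1a1 was at 2690 and 2289 CPM at the center and 725 and 324 CPM at the margin (log2 difference 2.08 ± 0.44, FDR = 0.0896). Col3a1 was at 2574 and 2085 CPM against 1332 and 263 CPM (1.37 ± 0.72, FDR = 0.304). These groups did not overlap, but the margin libraries differed more from each other than the center libraries did. Col6a1, Col6a2 and Col6a3, which assemble into beaded microfibrils, had log2 differences of 2.38, 2.46 and 2.54 (FDR = 0.0687, 0.0915 and 0.0631). Col17a1, at 1545 and 1429 CPM against 988 and 1178 CPM, differed by 0.31 ± 0.23 (FDR = 0.448), and Col12a1 by 0.63 (FDR = 0.154). Per class, the summed level at the center was 3.89-fold that of the margin for fibrillar genes (6940 ± 957 against 1783 ± 1381 CPM, SD, n = 2), 3.83-fold for basement membrane, 6.08-fold for beaded filament, 2.76-fold for multiplexin, 1.97-fold for FACIT and 1.37-fold for transmembrane genes.

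Marker sums of fibroblasts, endothelium and pericytes were also higher at the center in these epidermis libraries. The fibroblast marker sum was 1603 to 1848 CPM at the center and 626 to 896 CPM at the margin, with 3 of 12 genes called higher. Endothelial markers summed to 36.9 to 50.4 CPM against 2.13 to 9.48 CPM (0 of 6 called by edgeR, 6 at unadjusted p under 0.05), pericyte and smooth muscle markers to 106 to 124 CPM against 9.44 to 24.6 CPM (1 of 4 called). Of 5 adipocyte markers Adipoq, Plin1, Cidec and Lep were at 0 reads in every one of these libraries, and only Fabp4, a lipid-binding protein that other cell types make too, was read, at 617 and 792 CPM at the center against 94.8 and 48.1 CPM. Their part in the collagen differences was not tested, and in bulk samples fewer cells of a type and less RNA per cell cannot be told apart. None of the 5 genes was called by the older edgeR quasi-likelihood procedure (0 of 33, with 20 at unadjusted p under 0.05). DESeq2 called 16, beside 10.7% of all genes. Without epidermis center replicate 1 Col5a3 did not pass (FDR = 0.0648), and without replicate 2 Col8a1 did not (FDR = 0.0554). Without margin replicate 1 or 2 more members were called, mostly higher, but a far larger share of all genes was called too. These fits rest on 1 margin library.

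In dermis the region differences were smaller, with 2 collagen genes higher at the center and none lower. These were 2 of 39 tested, where 0.116% of all genes were called higher, and 18 of the 39 had an unadjusted p under 0.05. Col24a1 was at 129 and 140 CPM at the center and 60.9 and 51.5 CPM at the margin (log2 difference 1.26 ± 0.21, FDR = 0.0188). Col5a3 was at 325 and 308 CPM against 142 and 150 CPM (1.12 ± 0.18, 2.18-fold, FDR = 0.0162). In both genes the replicates lay close together and the regions did not overlap. Without either margin library, which left 1 in that group, neither gene passed the test. Nor did they in 1 fit over all libraries of the species (0 of 42, with 8 at unadjusted p under 0.05). By the older edgeR procedure neither passed (FDR = 0.0681 for Col24a1 and 0.0644 for Col5a3). DESeq2 called 11, beside 5.02% of all genes.

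The other classes in dermis gave values short of the test. Col7a1 was at 1463 and 888 CPM at the center and 638 and 365 CPM at the margin (log2 difference 1.23 ± 0.30, FDR = 0.0999), and Col18a1 at 587 and 487 CPM against 301 and 277 CPM (0.90 ± 0.19, FDR = 0.0666). Col1a1 differed by 0.67 ± 0.37 (FDR = 0.439) and Col3a1 by 0.37 ± 0.39 (FDR = 0.737). Both fibrillar genes had differences of the order of their errors. Col17a1 lay the other way, at 13.8 and 0.717 CPM at the center and 30.2 and 59.2 CPM at the margin (-2.59 ± 0.65, FDR = 0.118). Beside it, the keratinocyte marker sum was 347 to 530 CPM at the center and 1835 to 3529 CPM at the margin, with 6 of 10 genes called lower at the center, and its part in the value of Col17a1 was not tested. Summed levels were 1.31-fold those of the margin for fibrillar genes, with overlapping groups, 1.60-fold for basement membrane, 1.70-fold for beaded filament and 1.73-fold for multiplexin genes. The FACIT sum was 1.24-fold, with overlap. Other sums were lower at the center. Transmembrane genes summed to 51.1 ± 4.56 against 74.4 ± 13.0 CPM (SD, n = 2), without overlap. Of them Col17a1 and Col13a1 were lower at the center. Means of Col23a1 (16.2 against 12.1 CPM) and Col25a1 (27.6 against 14.4 CPM) were higher there. With overlap, short chain genes summed to 395 ± 51.9 against 465.5 ± 58.2 CPM. Col26a1 and Col28a1 summed to 52.2 ± 14.5 against 71.4 ± 34.1 CPM, also with overlap. Both short chain genes tested, Col8a1 and Col8a2, were fitted below 0, at -0.21 and -1.10 on the log2 scale (FDR = 0.669 and 0.495).

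The center-margin difference was larger in epidermis than in dermis for 5 of 40 collagen genes by the interaction term over the 8 libraries, where 3.34% of all genes were called in that direction. These were Col8a1 (difference of log2 differences 3.70 ± 0.38, FDR = 0.0014), Col4a1 (3.13 ± 0.54, FDR = 0.0102), Col4a2 (2.39 ± 0.48, FDR = 0.0205), Col5a1 (2.47 ± 0.50, FDR = 0.0205) and Col5a3 (2.20 ± 0.38, FDR = 0.00986). They were the 5 genes called in epidermis, and of them Col5a3 was called in dermis too. For Col8a1 the dermal difference was -0.21, at 357 and 422 CPM in center and 410 and 497 CPM in margin. The median of the interaction was 1.95 over the 40 members and 0.31 over all genes. With all 5 WT dermis center libraries the count was 1, beside 3.23% of all genes called in either direction. Without either epidermis margin library more collagen genes were called, and so was a larger share of all genes. Without any other single library both were smaller. Each of these fits left 1 library in a group.

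**Figure D4:**
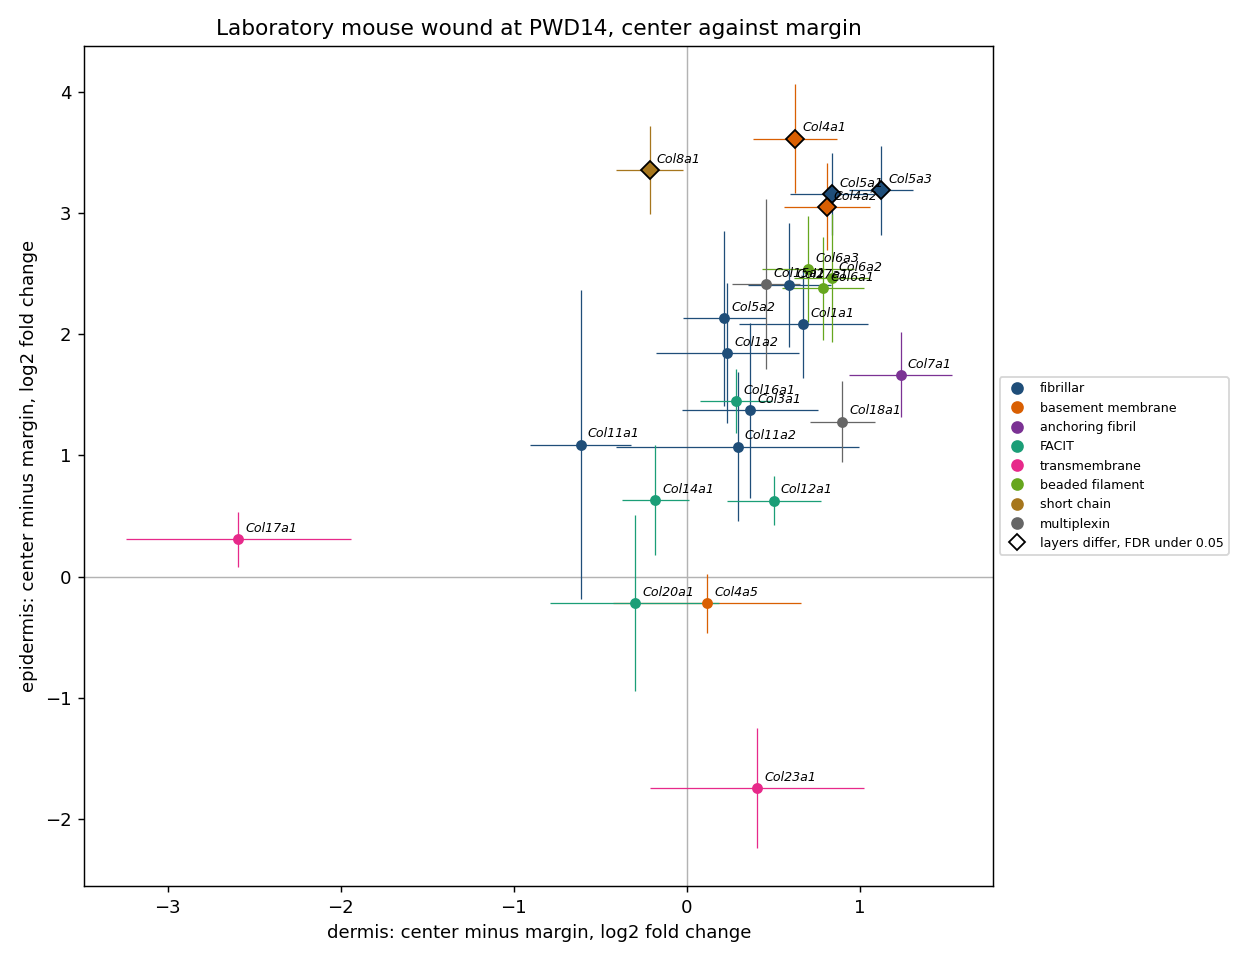
Log2 differences, wound center minus margin, of 25 collagen genes in laboratory mouse dermis (horizontal axis) and epidermis (vertical axis), with SE bars of the fit and colors for classes. Diamonds mark Col4a1, Col4a2, Col5a1, Col5a3 and Col8a1, whose differences were larger in epidermis by the interaction test, and Col17a1 and Col23a1 lie apart from the rest.

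The genotype comparison asked whether epidermal Twist1 deletion changed the center dermis. By edgeR no collagen gene of 38 passed the threshold, where 0.0565% of all genes did, and 11 of the 38 had an unadjusted p under 0.05. DESeq2 called 8, beside 5.56% of all genes, with Col12a1, Col15a1, Col16a1, Col18a1, Col4a1, Col4a2 and Col9a2 lower in KO and Col17a1 higher. Without KO replicate 1 edgeR called 18 (2 higher and 16 lower, beside 22.5% of all genes), and without KO replicate 2 it called 0, with 8 at unadjusted p under 0.05.

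Most members had lower values in KO, with a median log2 difference of -0.60 against -0.07 over all genes. Col12a1 was at 6836, 5908 and 4403 CPM in WT and 2338 and 1089 CPM in KO (-1.73 ± 0.47, FDR = 0.273). Col15a1, a multiplexin of vessel and muscle basement membranes, was at 441, 559 and 331 CPM against 226 and 134 CPM (-1.29 ± 0.32, FDR = 0.267). Both genes had every KO library under every WT library of this comparison without passing the adjusted threshold. WT center replicates 1 and 2 were not in it. Their means, 2127 CPM for Col12a1 and 145 CPM for Col15a1, lay between the KO values. Col16a1, a FACIT chain, was at 1153, 992 and 1073 CPM against 673 and 453 CPM (-0.92 ± 0.27, FDR = 0.283). Col23a1, a transmembrane chain, was at 109, 101 and 46.6 CPM against 8.27 CPM and 0 reads (FDR = 0.184). In WT center replicates 1 and 2, outside this comparison, its mean was 16.2 CPM. Replicate 1, at 5.83 CPM, lay between the KO values. Col3a1 was at 39911, 35051 and 44014 CPM against 55580 and 30677 CPM, which overlapped (0.13 ± 0.83, FDR = 0.957), and Col1a1 differed by -0.52 ± 0.66 (FDR = 0.759).

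The class sums followed these genes. FACIT genes were 2.67-fold lower in KO, multiplexin genes 1.997-fold and basement membrane genes 1.73-fold, without overlap with WT replicates 3 to 5. Fibrillar genes were 1.196-fold lower with overlap. In WT replicates 1 and 2, means were under the KO means for Col4a1 (989 against 1394 CPM) and Col18a1 (537 against 615 CPM). They were above them for Col12a1 (2127 against 1714 CPM) and Col16a1 (835 against 563 CPM). With all 5 WT libraries edgeR called only Col17a1. Col17a1 was at 0, 0.447 and 0 CPM in WT and 19.5 and 279 CPM in KO (FDR = 0.155), in the order of the keratinocyte marker sums of 900 and 30036 CPM in KO replicates 1 and 2. Fibroblast markers summed to 29946 to 30828 CPM in WT and to 35160 and 22107 CPM in KO. The part of these cell markers in the genotype values was not tested.

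The spiny mouse libraries followed collagen genes over the days of a wound that regenerates skin appendages. In dermis at PWD21 against unwounded PWD0 skin, 19 of 40 collagen genes were higher, where 12% of all genes were, and 4 were lower, where 14.2% were. The median log2 difference was 1.25 against 0.03 over all genes. The PWD0 dermis pair was sequenced less deeply, with 5669760 and 6804714 counted reads against 21927269 and 34751956 at PWD21. Counted reads made up 27.0% and 32.8% of the PWD0 libraries and 44.9% and 52.9% of those at PWD21. Reads too low in quality to count made up 60.5% and 55.2% against 44.8% and 38.0%. What this contrast in depth and alignment added to the calls was not tested. By class, 6 of 11 fibrillar genes were higher and 1 lower, 4 of 6 beaded filament genes higher, 2 of 6 FACIT genes higher (Col12a1 and Col16a1), 2 of 6 basement membrane genes higher and 2 lower, and both short chain genes and Col7a1 higher. Col1a1, Col1a2 and Col3a1 were not among those called. Of the higher genes, Col16a1, Col4a1, Col4a2, Col5a3, Col6a2, Col6a6 and Col8a2 lost the call without PWD21 replicate 2. Col6a2, Col6a6 and Col8a2 lost it without PWD21 replicate 1 too. Each of these fits left 1 library at PWD21, and the share of all genes called also fell.

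Col8a1 was at 2.98 and 3.71 CPM at PWD0 and 141 and 157 CPM at PWD21, a log2 difference of 5.40 ± 0.33 (42.1-fold, FDR = 0.000145). Col12a1 was at 69.3 and 124 CPM against 1527 and 1294 CPM (3.80 ± 0.42, 14.0-fold, FDR = 0.000747). Among fibrillar chains, Col5a1 was at 363 and 339 CPM against 2226 and 4138 CPM (8.57-fold, FDR = 0.00329). The groups of these 3 genes were far apart in both replicates. Col5a2, the partner of Col5a1, rose 9.35-fold (FDR = 0.00187), Col11a1, a relative of type V first known from cartilage, rose from 9.48 and 8.82 CPM to 95.4 and 109 CPM (10.6-fold, FDR = 0.000331), Col27a1 rose 19.1-fold (FDR = 0.000435) and Col24a1 20.6-fold (FDR = 0.000692). Col7a1 was at 73.5 and 49.0 CPM against 360 and 936 CPM (9.97-fold, FDR = 0.00269), and Col6a1 at 353 and 403 CPM against 3116 and 4224 CPM (9.22-fold, FDR = 0.00227). Col4a1 was at 197 and 228 CPM against 617 and 1227 CPM (4.11-fold, FDR = 0.00816). In these 3 genes PWD21 replicate 2 was above replicate 1, and without it Col4a1 did not pass (FDR = 0.0726). The remaining 8 called higher had folds between 2.35 (Col8a2) and 43.7 (Col25a1, a transmembrane chain), besides Col26a1, which was at 1.75 CPM and 0 reads at PWD0 and 67.6 and 83.9 CPM at PWD21.

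The type I and III genes did not pass the test. Col1a1 was at 21935 and 12659 CPM at PWD0 and 14297 and 44377 CPM at PWD21 (log2 difference 0.67 ± 1.03, FDR = 0.656). Col3a1 was at 39101 and 22775 CPM against 46234 and 47273 CPM (0.51 ± 1.14, FDR = 0.769). The Col1a1 groups overlapped and the errors exceeded the differences, so no difference was detectable for these genes at this spread. Col14a1 (0.21, FDR = 0.647), Col15a1 (-0.50, FDR = 0.270) and Col18a1 (0.07, FDR = 0.909) did not pass the test either.

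The 4 genes lower at PWD21 were Col17a1, Col11a2, Col4a6 and Col4a5. Col17a1 was at 564 and 286 CPM at PWD0 and 13.3 and 32.8 CPM at PWD21 (19.7-fold lower, FDR = 0.0013), and Col4a5 at 43.7 and 64.8 CPM against 11.8 and 19.9 CPM (3.60-fold lower, FDR = 0.00772, and FDR = 0.0733 without PWD21 replicate 1). Col11a2 was at 57.4 and 31.3 CPM against 3.43 and 6.42 CPM (9.54-fold lower, FDR = 0.00211). Beside them, keratinocyte markers summed to 11923 and 6838 CPM at PWD0 and to 624.8 and 1203 CPM at PWD21, with 9 of 10 called lower. Adipocyte markers summed to 815 to 963 CPM against 114 to 220 CPM (5 of 5 called lower), skeletal muscle markers to 233 to 443 CPM against 105 to 143 CPM (6 of 9 lower), and fibroblast markers to 14132 to 19740 CPM against 34619 to 34851 CPM (5 of 12 higher). Of the other marker lists, 2 of 6 endothelial and 1 of 4 macrophage genes were higher, 1 of 4 Schwann and 1 of 4 pericyte and smooth muscle genes were lower, and 5 cartilage and bone genes split into 3 higher and 2 lower. The part of these markers in either direction was not tested.

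Over all 4 days in dermis, 25 of 42 collagen genes differed between days by the F test, where 24.7% of all genes did. PWD14 and PWD28 were 1 library each, so their spread was taken from the other days. By day means, 10 of the 25 were highest at PWD14, 7 at PWD21, 5 at PWD28 and 3 at PWD0. Some means lay close, such as Col16a1 at 1690 CPM at PWD14 and 1641 CPM at PWD21, and Col27a1 at 97.3 and 89.9 CPM. The early group held Col12a1, at 4976 CPM at PWD14 and 611 CPM at PWD28 (51.5-fold from lowest to highest day, FDR = 0.00128), Col7a1, at 1750 and 290 CPM (28.6-fold, FDR = 0.00417), and Col8a1, at 160 and 38.5 CPM (47.7-fold, FDR = 0.000318). All 3 were far above their PWD0 values at PWD14 and lower by PWD28. Col8a1 had a mean of 149 CPM at PWD21, close to its PWD14 value. The late group held Col4a1, at 623 CPM at PWD14 and 1156 CPM at PWD28 (5.44-fold, FDR = 0.0227), and Col4a2 (8.01-fold, FDR = 0.0282). It also held Col11a1, at 142 and 180 CPM (19.7-fold, FDR = 0.000616). Col11a1 did not rise steadily, with a mean of 102 CPM at PWD21. Col14a1 was lowest at PWD14, the day on which Col12a1 was highest (FDR = 0.0109). It was at 45.9 CPM there, between 215 and 305 CPM at PWD0 and 261 and 372 CPM at PWD21. At PWD28 it was at 129 CPM, so from PWD21 to PWD28 both genes fell.

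Col17a1 was lowest at PWD14 at 8.10 CPM and stood at 49.0 CPM at PWD28 (FDR = 0.00158), beside keratinocyte marker sums of 1854 and 3338 CPM. Col11a2 was at 2.25 CPM at PWD14 and 58.2 CPM at PWD28, beside 57.4 and 31.3 CPM at PWD0 (FDR = 0.00235). Both were low in the middle days and higher at the ends, Col17a1 by less at PWD28. Col1a1 (FDR = 0.790), Col1a2 (FDR = 0.933) and Col3a1 (FDR = 0.800) did not pass the test over days. Without either PWD21 library fewer collagen genes were called, and Col4a1 was among those lost without replicate 2. Without the single PWD14 library Col14a1 was among those lost. In each of these fits the share of all genes called fell too.

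**Figure D5:**
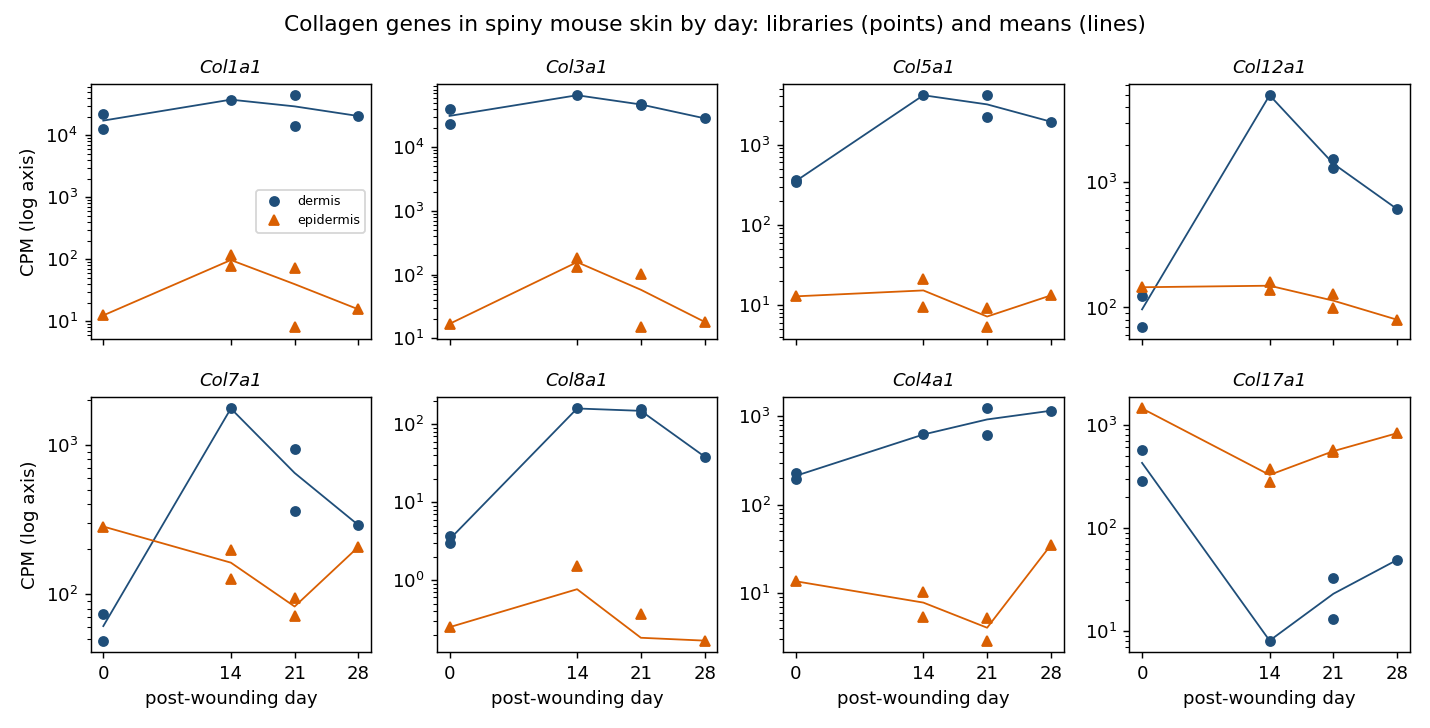
CPM of 8 collagen genes by post-wound day in spiny mouse dermis and epidermis, on log axes, with points for libraries and lines through day means. In dermis Col12a1 and Col7a1 peak at PWD14 and Col8a1 is at similar levels at PWD14 and PWD21. Col4a1 is higher late and Col17a1 falls after PWD0. Epidermal Col8a1 of PWD14 replicate 1 and PWD21 replicate 2, at 0 reads, is not drawn.

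In spiny mouse epidermis PWD14 was compared with PWD21, the days with 2 libraries each. At PWD14, 6 of 27 collagen genes were higher, where 23.4% of all genes were, and 4 were lower, where 23.2% were, so the shares of collagen genes called were near or under those of all genes. The higher genes were Col5a3, Col6a2, Col18a1, Col5a1, Col7a1 and Col16a1. Col18a1 was at 263 and 185 CPM at PWD14 and 121 and 91.9 CPM at PWD21 (log2 difference 1.11 ± 0.21, 2.16-fold, FDR = 0.00150), and Col7a1 at 199 and 126 CPM against 94.5 and 71.2 CPM (1.01 ± 0.23, 2.01-fold, FDR = 0.00441). Both genes of the junction were higher in each PWD14 library. Col5a1, Col7a1 and Col16a1 lost the call when libraries were scaled by size alone, which shifted the median of all genes to -0.59 and the split of all calls from 3011 higher and 2991 lower to 1335 and 5721. Without PWD21 replicate 1 the count of 10 was 16, and in 1 fit over all spiny mouse libraries it was 6. Col5a1 and Col16a1 also lost the call without PWD14 replicate 1, as did Col5a3, and without PWD21 replicate 2.

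The lower genes at PWD14 were the transmembrane Col17a1, the epithelial type IV pair and Col14a1. Col17a1 was at 370 and 280 CPM at PWD14 and 562 and 543 CPM at PWD21 (-0.73 ± 0.17, 1.65-fold lower, FDR = 0.00549), and in 1 fit over all spiny mouse libraries it did not pass (FDR = 0.193). Col4a5 was at 2.87 and 2.34 CPM against 15.2 and 20.7 CPM (-2.74 ± 0.35, 6.69-fold lower, FDR = 0.00018), and Col4a6, which starts 1343 bases from Col4a5 on the opposite strand of chromosome X, at 0.690 and 0.360 CPM against 5.05 and 5.42 CPM (FDR = 0.000881). These 3 genes of the epithelial side were lower together, without overlap between the days. Col14a1 was at 0.230 and 0.360 CPM, near the limit of detection, against 8.48 and 5.76 CPM (FDR = 0.000238). Col1a1 was at 117 and 77.4 CPM against 71.2 and 7.93 CPM (FDR = 0.111), and fibroblast markers summed to 476 to 501 CPM at PWD14 and 690 to 727 CPM at PWD21 (1 of 10 called, lower at PWD14). Keratinocyte markers summed to 123883 and 110115 CPM at PWD14 and to 82578 and 77484 CPM at PWD21, with 1 of 10 called higher and 2 lower. Fabp4 was at 9348 and 7285 CPM against 1386 and 1049 CPM, while the adipocyte markers Plin1 and Lep were at or under 3 reads in all 4 libraries. The part of these markers in the collagen values was not tested.

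Over all 4 days in epidermis 22 of 36 collagen genes differed, where 59.5% of all genes did, a share near the background. Of the 22, 8 were highest at PWD0, 8 at PWD14 and 6 at PWD28. Col17a1 was at 1430 CPM at PWD0 and 825 CPM at PWD28, so PWD14 was its lowest day (4.40-fold, FDR = 7.78e-05), and Col4a5 was at 36.7 and 25.7 CPM on those outer days (14.1-fold, FDR = 6.74e-05). Col18a1 had the opposite course, at 98.3 CPM at PWD0, its PWD14 values above and 55.2 CPM at PWD28 (4.06-fold, FDR = 0.000501). Col4a1 was at 13.6 CPM at PWD0 and 35.1 CPM at PWD28, with 2.91 to 10.35 CPM between (8.63-fold, FDR = 0.000408). Col11a2 was at 63.5 and 77.3 CPM on the outer days and 5.06 to 11.3 CPM between (13.1-fold, FDR = 5.33e-06). Col17a1, Col4a5, Col4a1 and Col11a2 were thus lower in each PWD14 and PWD21 library than on both outer days. The keratinocyte marker sum ran the other way, at 45698 CPM at PWD0 and 32506 CPM at PWD28 and between 77484 and 123883 CPM in the PWD14 and PWD21 libraries. Single markers did not all follow the sum. By CPM, Krt5, Krt14, Krt1 and Krt10 did so. Krt15, Dsp, Trp63 and Cdh1 were instead lower in each PWD14 and PWD21 library than on both outer days. Perp and Dsg3 did neither. The part of these markers in the collagen courses was not tested. For Col7a1 the order of the layers differed between unwounded and wounded skin. It was at 284 CPM in the PWD0 epidermis library against 73.5 and 49.0 CPM in PWD0 dermis, and at 208 CPM against 290 CPM at PWD28, with every dermis library above the epidermis libraries of its day from PWD14 on. With 1 epidermis library at PWD0, this change of order was not tested.

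Genes that act on collagens were read as a list of 15 folding and processing genes and a list of 10 receptors. In laboratory mouse epidermis 3 of 14 tested folding and processing genes were higher at the center, where 0.882% of all genes were, namely Serpinh1, the collagen chaperone, at 372 and 306 CPM against 56.0 and 82.6 CPM (4.39-fold, FDR = 0.0369), Pcolce, an enhancer of procollagen cleavage (7.77-fold, FDR = 0.0369), and Adamts2, a procollagen protease (11.8-fold, FDR = 0.0421). None of the list was called in dermis by region or genotype by edgeR (0 of 15 each). In spiny mouse dermis at PWD21, where 12% of all genes were higher and 14.2% lower than at PWD0, 8 of 15 were higher, among them Serpinh1 (4.36-fold, FDR = 0.00757), Fkbp10, a folding enzyme (4.38-fold, FDR = 0.00621), and P3h1, a prolyl hydroxylase (5.05-fold, FDR = 0.00128), and 1 was lower, Pcolce2, at 249 and 248 CPM at PWD0 and 1.98 and 1.81 CPM at PWD21. Both directions were thus present within the list. Of the receptors, 4 of 8 were higher there, including the fibrillar collagen integrin Itga11, at 4.39 and 4.35 CPM against 201 and 273 CPM (51.5-fold, FDR = 0.000145), and Ddr1, the receptor of epithelia, was lower (5.06-fold, FDR = 0.0100). In spiny mouse epidermis at PWD14, 4 of 15 folding and processing genes were higher and 5 lower, with 2 of 6 receptors lower, beside 23.4% of all genes higher and 23.2% lower, so that these shares were near those of all genes.

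The members left to describe were at 0 or low in part of the libraries. Col19a1 was at or under 3 reads in every laboratory mouse dermis library, as were Col10a1, Col22a1, Col28a1, Col6a6 and Col8a2 in every epidermis library, and Col22a1, Col28a1 and Col9a1 in every spiny mouse epidermis library. By highest level, some others reached at most 1.23 CPM (Col9a1), 6.86 CPM (Col9a2), 9.72 CPM (Col9a3), 17.7 CPM (Col20a1), 16.7 CPM (Col6a4), 52.4 CPM (Col6a5), 7.404 CPM (Col6a6) and 32.3 CPM (Col8a2) in any library. Of these, Col8a2 (FDR = 0.00706), Col6a6 (FDR = 0.0121) and Col6a5 (FDR = 0.0405) differed between the days in spiny mouse dermis, though the type VI chains lost the call without either PWD21 library. Col28a1, a beaded chain known from nerve, was at 6.29 to 80.3 CPM in laboratory mouse dermis and at most 3.14 CPM in the spiny mouse. Col10a1, the collagen of hypertrophic cartilage, reached at most 1.24 CPM in any library, and Col2a1, the main collagen of cartilage, at most 2.19 CPM. Col4a3 and Col4a4, chains of the glomerular basement membrane, reached 2.94 and 10.4 CPM, both in spiny mouse dermis. Col13a1, a transmembrane chain, was at 0.0788 CPM and 0 reads in laboratory mouse dermis center replicates 1 and 2. It was at 8.77 to 11.1 CPM in replicates 3 to 5 and at 3.18 and 3.16 CPM in the margin. WT center libraries of the 2 comparisons thus differed in this gene, and not in it alone. For Col4a1 the mean was 989 CPM in replicates 1 and 2 and 2575 CPM in replicates 3 to 5. In that order Col15a1 was at 145 and 443 CPM and Col12a1 at 2127 and 5716 CPM, while Col1a1 was at 26725 and 25672 CPM. Endothelial markers summed to 676 to 793 CPM and to 1109 to 1383 CPM.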

How the data were processed

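RNA was measured by polyA RNA-seq in 25 libraries. For every library the authors deposited unnormalized read counts of 24500 gene symbols, and its 5 htseq-count summary lines were left out. Per the methods and the submitters' processing notes, the authors aligned reads of both species to mm10 with STAR (2.6.1d in the methods, 2.4.1d in the notes) and counted them on RefSeq genes with HTSeq 0.6.0. Spiny mouse reads that differ from mm10 may not align, so its levels depend on each gene's conservation. In the laboratory mouse, libraries were strand-specific, while those of the spiny mouse were not, and 13 members overlap another gene.

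Counts were scaled by TMM, with 1 set of factors per species for CPM and 1 per comparison for tests, in R 4.3.3 with edgeR 4.0.16 and limma 3.58.1. Genes were kept by filterByExpr and tested by the quasi-likelihood F test (prior count 0.125) with Benjamini-Hochberg adjustment over all genes kept, and called at FDR under 0.05. The standard error (SE) was taken as the absolute log2 fold change divided by the root of F. The fits were tested on simulated data. Tables were made in Python 3.11.15 (pandas 2.3.3, numpy 2.4.6), and exon lengths came from GENCODE M21. DESeq2 1.42.0, other scalings, no filter, other sets of libraries and leaving out each library were the alternatives. Replicate libraries differed by more than sampling noise (chi-square per degree of freedom 30.1 to 394).

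The labels do not divide the 5 wild-type dermis center libraries, and the division follows library names that the study prints. Named genes were the members past the threshold in each comparison and 26 members fixed for their place in skin. Where more than 12 passed, the others were summarised. Members, classes and lists (folding and processing, receptors, and markers of fibroblasts, keratinocytes, skeletal muscle, endothelium, adipocytes, cartilage and bone, Schwann cells, macrophages, and pericytes and smooth muscle) were chosen with earlier results of these data known. Values that fall under 3 reads are treated as at the limit of detection, which covers counting error only.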

Additional observations from a re-analysis of the deposited data

Results flagged for a closer look

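In the laboratory mouse the center-margin difference was larger in epidermis than in dermis, by the interaction test of edgeR, for Col8a1 (by 3.70 on the log2 scale), Col4a1 (3.13), Col5a1 (2.47), Col4a2 (2.39) and Col5a3 (2.20). In each, the margin epidermis libraries were at the low end of all laboratory mouse libraries, and 3 of 12 fibroblast, 3 of 6 endothelial and 5 of 10 keratinocyte markers were called in the same direction by the same test, where 3.34% of all genes were. Their part in these values was not tested.

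Of 34 values of collagen genes examined in the group of 5 wild-type dermis center libraries, 1 had a library far from the others, which chance gives in about 1 in 20. Col17a1 was at 13.8 CPM in replicate 1 and at 0 to 0.717 CPM in the other 4 libraries, and the keratinocyte marker sum was 530 CPM in replicate 1, 347 CPM in replicate 2 and 11.05 to 50.5 CPM in the rest.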

How the results depend on the processing

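No paired analysis was possible because the labels give no replicate numbers, and those used here only name libraries. Over the named collagen genes, in the comparisons with a direction and all alternatives, no called value changed direction, 2857 values kept their side of the threshold, 123 passed it newly and 111 no longer did. Counts of collagen genes called differed by more than 1.5 times from those reported as follows, and the cause was not tested. For epidermis center against margin (5 called), DESeq2 gave 16, the older edgeR procedure 0 and 1 fit over all laboratory mouse libraries 11. For dermis (2), these gave 11, 0 and 0, and all 5 center libraries gave 5. For genotype (0), DESeq2 gave 8 and all 5 WT libraries 1 (Col17a1). For the interaction (5), DESeq2 gave 10 and all 5 center libraries 1. In these comparisons, in order, DESeq2 called 10.7%, 5.02%, 5.56% and 7.26% of all genes. For spiny mouse epidermis (10), 1 fit over all its species' libraries gave 6. Leaving out single libraries gave 4 to 26, 0 to 3, 0 to 18, 1 to 10 and 8 to 16 in these comparisons, 15 to 30 for the dermis day test, 16 to 27 for PWD21 against PWD0, 24 to 37, 29 to 34 and 34 to 37 for the layers, and 20 to 25 for the epidermis day test. Most fits without a single library left 1 library in a group, and the share of all genes called also rose or fell in them. Groups of 1 or 2 libraries limit each test, and a lone library was assumed to vary like the other groups.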
